A study of Mus musculus with 10 samples.

Results

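The intercalated disc is the end-to-end contact between cardiomyocytes. Genes of its junctions and further connexins of the heart, 10 in all, were described here in hearts under pressure overload. They were taken by gene symbol: the connexins Gja1, Gja4, Gja5 and Gjc1, the cadherin Cdh2, and the desmosome genes Dsg2, Dsc2, Dsp, Jup and Pkp2. Of the connexins, Gja4, Gja5 and Gjc1 are known mainly from cells other than working ventricular cardiomyocytes, as given below. All 10 were found among the 20692 genes of the count table, and all 10 were among the 12001 genes with enough counts to be tested. The data are polyadenylated RNA of the ventricular apex (the labels also write whole-heart tissue) from 10 FVB/NJ wild-type mice aged 9 weeks and labelled female. Of these, 5 were taken 1 week after TAC (transverse aortic constriction), an operation that narrows the aorta so that the left ventricle must pump against a higher pressure, and 5 were sham-operated. FVB/NJ is an inbred laboratory strain. The titles of the sham libraries do not name the operation, and their group comes from the design text of the series. That text counts mice, and no animal identifiers are given, so the p-values measure the spread between these libraries.

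Gap junctions are built from connexins, whose channels in neighbouring membranes dock and let current pass from cell to cell. Desmosomes and adherens junctions hold the cells together: cadherins cross the membrane and bind those of the neighbouring cell, and plaque proteins inside the cell tie them to intermediate filaments or actin. In heart these junctions mingle at the disc, and inherited defects of the desmosome genes cause arrhythmogenic cardiomyopathy in humans.

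Each library held between 7410967 and 10126574 counts. The library labelled TAC replicate 1 did not match its female label, with 14 counts of Xist, the RNA that silences an X chromosome in females. Each of the other 9 libraries held 1042 to 1561. Ddx3y, a Y-linked gene, had 155 counts in it and 0 in the other 9. It also stood apart over all genes: the chi-square per gene between libraries was 13.9 to 23.5 for its 4 pairs with other TAC libraries, 4.27 to 9.1 for the other 6 TAC pairs and 2.57 to 11.5 for sham pairs. Values without it are given beside the members, most counts over lists and some of the genes named among them. The stated processing differed between TAC and sham libraries, so an effect of it cannot be told apart from that of the operation. Levels are CPM, counts scaled to a common library size with TMM factors, given as mean ± SD over 5 libraries. Changes are log2 fold changes of TAC over sham ± SE, with p-values from the quasi-likelihood test of edgeR, adjusted by Benjamini-Hochberg over all tested genes. In bulk tissue, fewer cells of a type and less RNA per cell cannot be told apart.

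With TMM factors, the transmembrane cadherins were lower in TAC hearts, whereas no gene of the desmosomal plaque and only 1 connexin passed the test. Dsg2 and Dsc2, the desmosomal cadherins of heart, fell to 0.629 and 0.711 of their sham level, and Cdh2, which encodes N-cadherin of the adherens junction, fell to 0.878 of it. Gjc1, which encodes connexin 45, rose 1.32-fold. Gja1, which encodes connexin 43, the main connexin of the working ventricle, was near the same level in both groups. Dsg2, Dsc2 and Gjc1 passed in all 16 alternative fits. With library totals as the only scaling, Cdh2 did not pass (log2 fold change -0.08), whereas Jup of the plaque (0.22) and the connexin Gja4 (0.37) did. The contrast of cadherins with plaque thus held in every fit only for Dsg2 and Dsc2 against Dsp and Pkp2. In all, 1 of the 10 genes was higher and 3 were lower at an adjusted p under 0.05, which is 40.0% of them. Over all tested genes 35.8% were called, 18.8% higher and 17.0% lower (2251 and 2040 genes, against 3257 and 1159 with library totals as the only scaling), so the share called among the 10 was near that of the transcriptome. In 4 of the 10 the groups did not overlap, against 23.7% of all tested genes. Their median log2 fold change was -0.03, and that of all tested genes was 0.00.

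**Figure D1:**
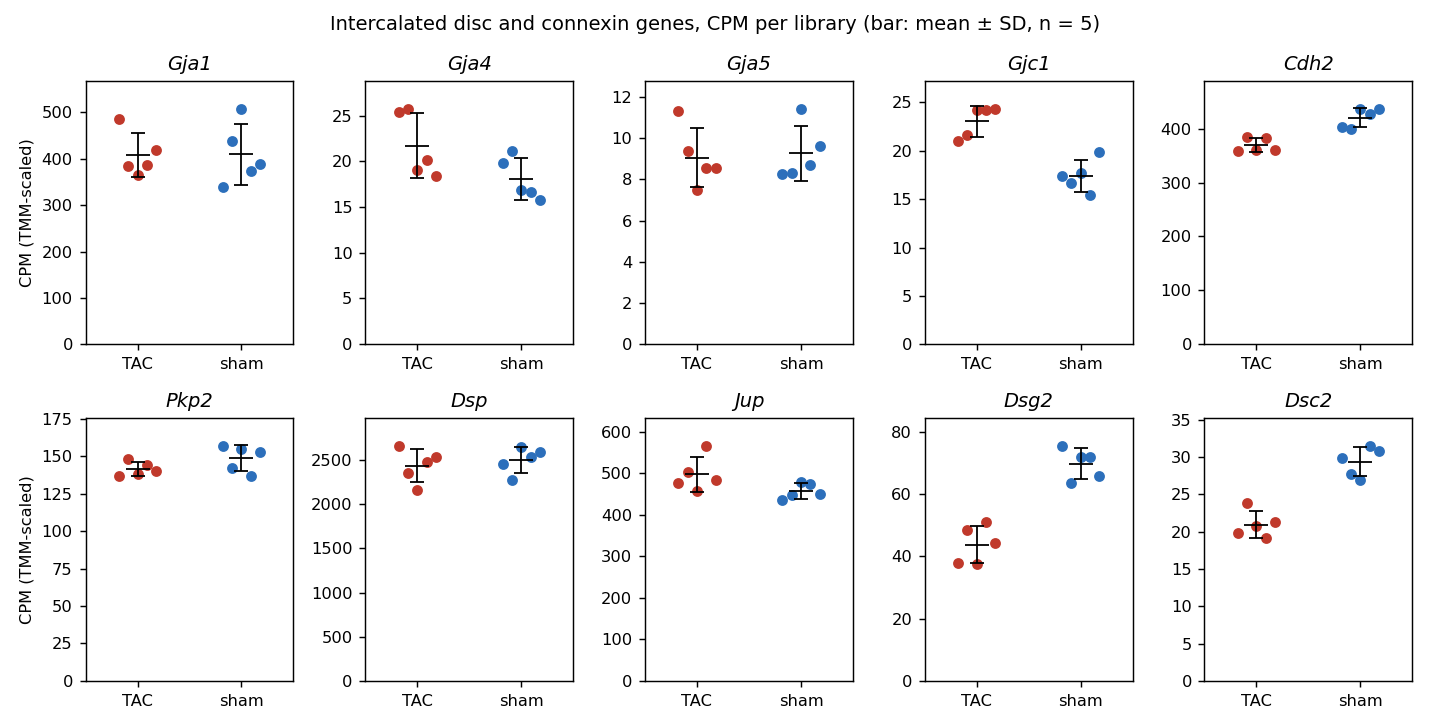
CPM of each of the 10 genes in the 5 TAC and 5 sham libraries; points are libraries and the bars show mean ± SD, on axes that start at 0. The TAC points of Dsg2, Dsc2 and Cdh2 all lie below the sham points and those of Gjc1 all lie above them, while the other 6 genes overlap.

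Upstream sequence is shown for Gja1 and Gja5, the most and the least abundant of the 4 connexins, and for Dsp, the most abundant plaque gene. RefSeq windows (GRCm38.p6) were read for 5 of the 10 genes, over the 250 bases before the start site. These are chr10:56377050-56377299 for Gja1, chr3:97032152-97032401 for Gja5 and chr13:38151044-38151293 for Dsp, all on the plus strand (that of Gja5 lies inside the GENCODE span of the gene), printed 5′ to 3′. Capitals mark matches on either strand to AP-1 (TGANTCA), the GC box (GGGCGG), a T-box motif (GGTGTG) or the core promoter box TATAAA, which none of the 3 windows holds.
Gja1: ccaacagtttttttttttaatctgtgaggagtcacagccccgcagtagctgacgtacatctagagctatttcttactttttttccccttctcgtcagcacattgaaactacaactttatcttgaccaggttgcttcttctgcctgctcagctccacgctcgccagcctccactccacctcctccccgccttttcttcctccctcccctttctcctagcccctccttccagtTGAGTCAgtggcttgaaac
Gja5: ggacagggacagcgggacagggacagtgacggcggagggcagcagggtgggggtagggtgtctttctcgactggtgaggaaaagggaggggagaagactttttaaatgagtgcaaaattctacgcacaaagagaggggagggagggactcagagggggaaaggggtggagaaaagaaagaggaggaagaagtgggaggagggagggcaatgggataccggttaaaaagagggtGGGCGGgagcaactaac
Dsp: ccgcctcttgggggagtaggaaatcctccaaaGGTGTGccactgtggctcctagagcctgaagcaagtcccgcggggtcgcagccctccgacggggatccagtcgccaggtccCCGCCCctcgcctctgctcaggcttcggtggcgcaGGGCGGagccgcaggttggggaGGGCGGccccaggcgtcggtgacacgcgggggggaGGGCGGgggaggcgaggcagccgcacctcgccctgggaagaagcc
The Gja1 window holds an AP-1 match that begins 19 bases before the start site, and no GC box. AP-1 is the binding motif of Fos and Jun dimers. The Gja5 window holds 1 GC box at 17 bases before the start site. In the Dsp window, GC boxes begin at 137, 102, 80 and 45 bases before the start site and the T-box motif at 218 bases. Of 32851 windows of this length, 6.75% hold the AP-1 letters, 32.7% the GC box, 16.3% the T-box motif and 12.4% the core promoter box. The E-box (CANNTG, in 66.2% of windows), the GATA motif (AGATAA, 9.99%) and the TEAD motif (CATTCC, 12.6%) were also searched. Gja1 had 1 E-box match at 23 bases, which overlaps its AP-1 match, and 1 GATA match at 135 bases, and Gja5 and Dsp had none of these. The windows differ in GC content, which is 50% for Gja1, 56.4% for Gja5 and 72.4% for Dsp. Such matches are descriptions of the letters and were not tested for binding.

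Among the connexins, Gja1 (ENSMUSG00000050953, chr10:56377330-56402513, GENCODE M21 on GRCm38, as for all gene positions below) was the most abundant. It had 486, 385, 365, 386 and 420.0 CPM in TAC libraries 1 to 5, against 339, 439, 507, 374 and 389 CPM in sham libraries 1 to 5. The groups overlapped fully, with the highest TAC library inside the sham range. Gja1 averaged 408 ± 47.7 CPM in TAC and 409 ± 65.3 CPM in sham (SD, n = 5 each), a log2 difference of 0.00 ± 0.11 (edgeR, adjusted p = 0.984). The 95% interval of its fold ran from 0.852 to 1.17, so a change of that size in either direction is not distinguishable here. TAC replicate 1, the library that did not match its label, was the highest of its group. Without it the log2 fold change was -0.07 (adjusted p = 0.608 by edgeR), and with library totals as the only scaling it was 0.10.

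Gjc1 (ENSMUSG00000034520, chr11:102799579-102819700) encodes connexin 45, which in mice is needed in the embryonic heart and in the adult is found mainly in nodal and conducting cells. It had 21.0, 21.6, 24.2, 24.2 and 24.3 CPM in TAC libraries 1 to 5, against 17.4, 16.7, 17.7, 15.4 and 19.9 CPM in sham libraries 1 to 5. Every TAC value exceeded every sham value, which was so for 12.2% of all tested genes. The log2 fold change was 0.41 ± 0.08 (adjusted p = 0.0019 by edgeR). Gjc1 passed in all 16 alternative fits, with values between 0.36 and 0.51, and without TAC replicate 1 it was 0.44. The counts behind it were 135 to 232 reads per library. Of 7 tested conduction markers, described below with Gja5, 4 fell and none rose, and their part in the Gjc1 values was not tested.

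Gja4 (ENSMUSG00000050234, chr4:127311421-127314039) encodes connexin 37 of endothelium. It had 25.4, 25.7, 19.0, 20.1 and 18.4 CPM in TAC libraries 1 to 5, against 19.8, 21.1, 16.9, 16.6 and 15.8 CPM in sham libraries 1 to 5. The groups overlapped, and the TAC libraries 1 and 2 lay above all others. Its log2 difference of 0.27 ± 0.12 did not pass (adjusted p = 0.0942 by edgeR). It was 0.37 (adjusted p = 0.027) with library totals only and 0.20 (adjusted p = 0.21) without TAC replicate 1, both by edgeR. Endothelial markers were read beside it: of 12 tested, 6 rose, 6 did not pass and none fell (median log2 fold change 0.23). The number that rose was 8 without TAC replicate 1. Their summed level was 1455 CPM in TAC replicate 1, 1615 to 1788 CPM in the other TAC libraries and 1313 to 1531 CPM in sham. Within TAC, that sum was thus lowest in replicate 1, where Gja4 was among the highest. Cdh5, the cadherin of endothelial junctions, rose 1.46-fold, while Kdr, a VEGF receptor, had 247 ± 14.0 CPM in TAC and 279.5 ± 49.7 CPM in sham. The part of these markers, and of the arterial ones described below with Gja5, in the Gja4 values was not tested.

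Gja5 (ENSMUSG00000057123, chr3:96904693-97077416) encodes connexin 40 of atrial muscle, ventricular conduction fibres and arterial endothelium. It had the lowest level of the 10, with 62 to 98 reads in each library. The values were 11.3, 9.38, 7.47, 8.56 and 8.56 CPM in TAC libraries 1 to 5, against 8.28, 8.29, 11.4, 8.69 and 9.61 CPM in sham libraries 1 to 5. These ranges overlap throughout, and the log2 fold change was -0.03 ± 0.13 (adjusted p = 0.897 by edgeR). At this depth the 95% interval of the fold reached from 0.806 to 1.2. Without TAC replicate 1, the highest of its group, the log2 fold change was -0.12 (adjusted p = 0.5 by edgeR). The exons of Gja5 share 165 bases with those of Gpr89 on the other strand, 2.87% of its exon length, and the libraries do not keep the strand.

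Markers of cell types that express Gja5 were read beside it, and their part in its values was not tested. Of 7 tested conduction markers, 4 fell and none rose (median log2 fold change -0.52), with a summed level of 41.1 CPM in TAC replicate 1, 46.8 to 57.6 CPM in the other TAC libraries and 53.8 to 81.7 CPM in sham. Cntn2, a cell adhesion molecule of Purkinje fibres, fell to 0.391 of its sham level (4.62 ± 1.81 CPM in TAC and 11.7 ± 3.13 CPM in sham). Hcn4, the pacemaker channel, Scn10a, a sodium channel, and Irx3, a transcription factor of conduction cells, fell to 0.622, 0.642 and 0.698 of it. The number that fell was 2 without sham replicate 3, without sham replicate 4 and without TAC replicate 3, and was 4 without TAC replicate 1. Of 11 tested arterial endothelial markers, 3 rose, 8 did not pass and none fell, and 3 also rose without TAC replicate 1. Their summed level was 842 CPM in TAC replicate 1, 710 to 760.4 CPM in the other TAC libraries and 639 to 859.7 CPM in sham. The atrial markers Sln, Myl7, Bmp10 and Mybphl had at most 8 counts in any library and were not tested. Of the 4 atrial markers tested, Dkk3 rose 3.51-fold, Stard10 fell to 0.677 of its sham level, and Myl4 and Myl1 did not pass. The summed level of that list was 149 CPM in TAC replicate 1, of which Myl1 made up 116 CPM, 69.1 to 94.0 CPM in the other TAC libraries and 68.8 to 76.2 CPM in sham. In sham libraries Myl1 averaged 40.9 ± 3.37 CPM, so there too it made up most of the sum on average. The sum was thus not taken as a level of atrial muscle. Dkk3 and Stard10 were called without TAC replicate 1 too (log2 fold change 1.79 and -0.45).

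Cdh2 (ENSMUSG00000024304, chr18:16588877-16809246) encodes N-cadherin, the classical cadherin that holds cardiomyocytes end to end. It had 358, 385, 360, 382 and 360.5 CPM in TAC libraries 1 to 5, against 403, 399, 436, 428 and 436 CPM in sham libraries 1 to 5. Every TAC value was under every sham value, as in 11.6% of all tested genes, although the gap between the groups was narrow. The log2 fold change was -0.19 ± 0.05 (adjusted p = 0.0109 by edgeR). Without TAC replicate 1 it was -0.18 (adjusted p = 0.0188 by edgeR). When only library totals were used for scaling, the call ended (-0.08, adjusted p = 0.172 by edgeR). That scaling moved the median of all genes to 0.11, and relative to it Cdh2 was at -0.19.

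Dsg2 (ENSMUSG00000044393, chr18:20558074-20604521) encodes desmoglein 2, the main desmoglein of cardiomyocytes, and had the largest fall of the 10. It had 37.8, 48.4, 37.6, 51.0 and 44.3 CPM in TAC libraries 1 to 5, against 75.5, 63.5, 72.1, 71.8 and 65.7 CPM in sham libraries 1 to 5. The highest TAC library was well below the lowest sham library. Dsg2 averaged 43.8 ± 6.09 CPM in TAC and 69.7 ± 4.94 CPM in sham (SD, n = 5 each). Its log2 fold change was -0.67 ± 0.09 (adjusted p = 0.000162 by edgeR), and 2.1% of all tested genes had a lower one. Of its exon length, 3.99% is shared with an antisense transcript on the other strand.

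Dsc2 (ENSMUSG00000024331, chr18:20030633-20059554) encodes desmocollin 2, which pairs with desmogleins across the junction. It had 19.8, 23.8, 20.7, 19.1 and 21.3 CPM in TAC libraries 1 to 5, against 29.9, 27.8, 26.9, 31.5 and 30.8 CPM in sham libraries 1 to 5. Here too the groups did not overlap. The log2 fold change was -0.49 ± 0.07 (adjusted p = 0.00033 by edgeR), with 5.12% of all tested genes lower. Dsg2 and Dsc2 passed in all 16 alternative fits, with values between -0.73 and -0.57 for Dsg2 and between -0.54 and -0.39 for Dsc2. Without TAC replicate 1 they were -0.62 and -0.47.

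The 3 cadherin genes lie on the same chromosome, 18, where Dsc2 and Dsg2 belong to the cluster of desmosomal cadherin genes. Of the 288 other tested genes of that chromosome, 15.6% were lower and 16.7% higher in TAC, with a median log2 fold change of 0.00 over the whole chromosome. The neighbourhood of the cluster was not tested.

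In the plaque, Dsp, Jup and Pkp2 did not pass. Dsp (ENSMUSG00000054889, chr13:38151294-38198577) encodes desmoplakin, which links the plaque to desmin filaments. It had 2661, 2359.6, 2159, 2477 and 2540.3 CPM in TAC libraries 1 to 5, against 2462, 2272, 2649, 2531 and 2587 CPM in sham libraries 1 to 5. The groups overlapped over nearly their whole range, with a log2 fold change of -0.04 ± 0.07 (edgeR, adjusted p = 0.725). Without TAC replicate 1, the highest TAC library for Dsp, the log2 fold change was -0.07. Jup (ENSMUSG00000001552, chr11:100368958-100397763) encodes plakoglobin, which binds cadherins in desmosomes and adherens junctions. It had 477, 504, 457, 566 and 483 CPM in TAC libraries 1 to 5, against 435, 447, 479.9, 475 and 450.3 CPM in sham libraries 1 to 5. TAC replicate 4 lay above the rest, and the groups overlapped at their edges. The log2 fold change of 0.12 ± 0.06 did not pass (adjusted p = 0.154 by edgeR), but it was 0.22 (adjusted p = 0.00913) with library totals only. Without TAC replicate 1 it was 0.14 (adjusted p = 0.128 by edgeR). Pkp2 (ENSMUSG00000041957, chr16:16213318-16272712) encodes plakophilin 2, which gathers desmoplakin at the junction. It ranged from 137 to 148 CPM in TAC and from 137 to 157 CPM in sham (log2 fold change -0.07 ± 0.05, adjusted p = 0.315 by edgeR). Without TAC replicate 1 the log2 fold change of Pkp2 was -0.06. The 95% intervals of the folds ran from 0.881 to 1.08 for Dsp, from 0.99 to 1.19 for Jup and from 0.879 to 1.03 for Pkp2. Of the exons of Dsp, 5.17% overlap a gene model on the other strand that is not in the count table.

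**Figure D2:**
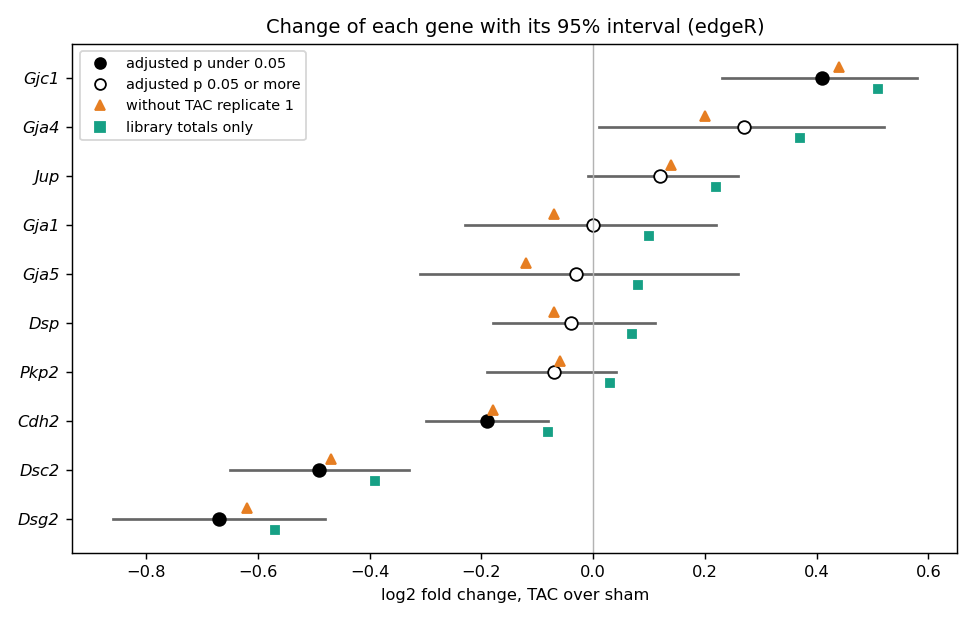
Log2 fold change of TAC over sham for each gene with its 95% interval, with the values without TAC replicate 1 (triangles) and with library totals only (squares). Filled points, those of Gjc1, Cdh2, Dsc2 and Dsg2, have an adjusted p under 0.05, and the interval of Gja1 runs from -0.23 to 0.22.

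Whether the cadherins changed relative to Dsp, a desmosomal plaque gene, was asked with ratios of counts within each library. Such ratios do not depend on scaling. Cdh2 was not set against the catenins of its own junction. The 8 ratios were compared by exact two-sided permutation tests over 252 divisions of the 10 libraries, with Benjamini-Hochberg adjustment over the 8. Dsg2 had 1.42% to 2.06% as many counts as Dsp in TAC libraries and 2.54% to 3.07% in sham libraries. For Dsc2 over Dsp, the range was 0.745% to 1.01% in TAC and 1.02% to 1.25% in sham. Neither ratio overlapped between groups, though for Dsc2 the highest TAC and the lowest sham library nearly met. The log2 ratio differed by -0.64 for Dsg2 and by -0.45 for Dsc2 (exact permutation p = 0.00794 for each, the smallest this design can give, adjusted p = 0.0317). Leaving out any of 7 of the 10 libraries (each sham library, TAC replicate 4 or TAC replicate 5) brought both adjusted p to 0.0635. In those 7 sets the unadjusted p was 0.0159 for Dsc2 and still 0.00794 for Dsg2 (exact permutation), the smallest that such a set can give. For Dsg2 the adjusted p in those sets thus rested on the p of the other ratios. Over all 10 sets that lack a library, the values lay between -0.69 and -0.56 for Dsg2 and between -0.51 and -0.40 for Dsc2. The differences for Cdh2, Pkp2 and Jup over Dsp were -0.15, -0.03 and 0.15 (exact permutation, adjusted p = 0.0794, 0.698 and 0.114).

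Connexin ratios to Gja1 overlapped between groups. Gjc1 had 4.34% to 6.65% as many counts as Gja1 in TAC libraries and 3.5% to 5.15% in sham libraries, a log2 difference of 0.40 (exact permutation p = 0.0397, adjusted p = 0.0794). Without TAC replicate 1, in which Gja1 was high, the difference was 0.50 (exact permutation, adjusted p = 0.0476). Gja4 over Gja1 differed by 0.26 (exact permutation, adjusted p = 0.233) and Gja5 over Gja1 by -0.04 (adjusted p = 0.698).

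**Figure D3:**
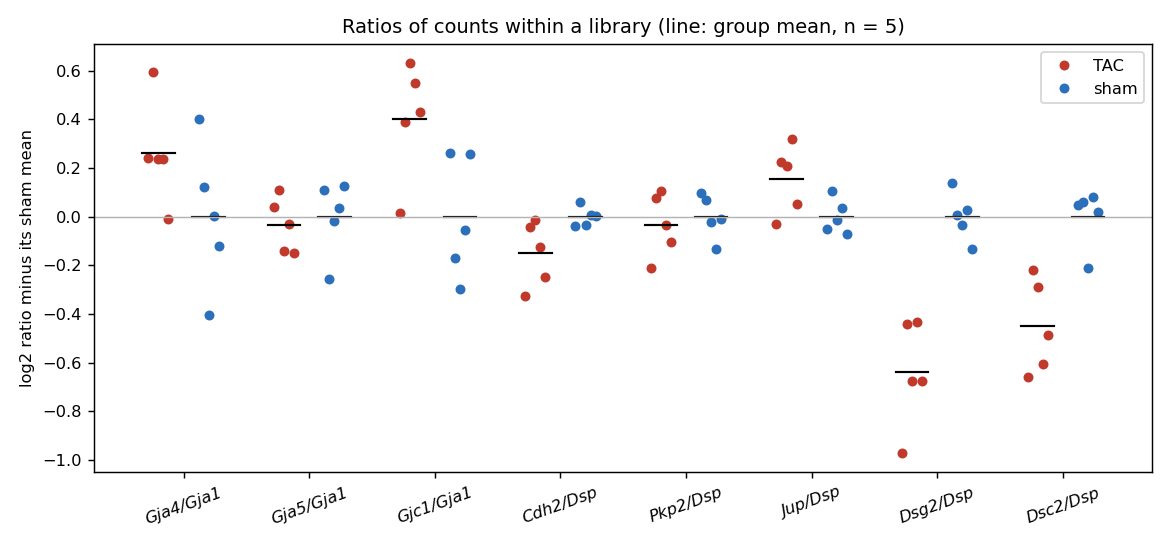
Log2 ratio of counts of a pair of genes in each library, less the sham mean of that ratio, for 8 ratios; points are libraries (n = 5 per group) and lines group means. The TAC points of Dsg2/Dsp and Dsc2/Dsp lie below all sham points, and those of the other 6 ratios overlap with sham.

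Levels of different genes were compared as TPM, in which counts are divided by the exon length of each gene and scaled to a fixed total. In sham hearts the order of mean TPM was Dsp (679), Jup (187), Cdh2 (137), Gja1 (105), Pkp2 (72.8), Gja4 (28.1), Dsg2 (22.1), Dsc2 (14.6), Gjc1 (9.16) and Gja5 (4.23). Desmoplakin was thus the most abundant message per length and connexin 40 the least. Among neighbours in this order, the sham libraries of Cdh2 (125 to 144 TPM) and Gja1 (82.7 to 132 TPM) overlapped, and no other neighbours did. In TAC hearts Gjc1 (11.9 to 14.6 TPM) overlapped with Dsg2 (13.4 to 17.9 TPM) and with Dsc2 (10.5 to 12.4 TPM), both of which lay above it in sham hearts. Since TPM carries no TMM factor, the groups compare differently on this scale. Jup had 208 to 254 TPM in TAC, all above the 169 to 199 TPM in sham, whereas Cdh2 overlapped, with 131 to 137 TPM in TAC and 125 to 144 TPM in sham. By these exon lengths, Gja1 made up 63.9% to 70.3% of the summed TPM of the 4 connexins in TAC and 66.5% to 76.1% in sham. Gjc1 made up 6.13% to 9.13% in TAC and 5.44% to 7.52% in sham.

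The order and the connexin shares depend on the length used. Annotated exons of Gja1 add up to 10.3 kb, whereas its longest principal transcript has 3182 bases. Scaled to principal transcripts, sham means were 339 for Gja1 and 228 for Cdh2, so Gja1 stood above Cdh2, 31.7 for Dsg2 and 28.1 for Gja4, and 19.8 for Gjc1 and 16.6 for Dsc2. Dsp (684) and Jup (375) kept the top places and Gja5 (7.82) the last. In TAC hearts the connexin means on that scale were 377 for Gja1, 37.8 for Gja4, 29.2 for Gjc1 and 8.56 for Gja5. By these means Gja1 made up a larger share of the 4 connexins in both groups than by merged exons, and Gjc1 a smaller one.

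**Figure D4:**
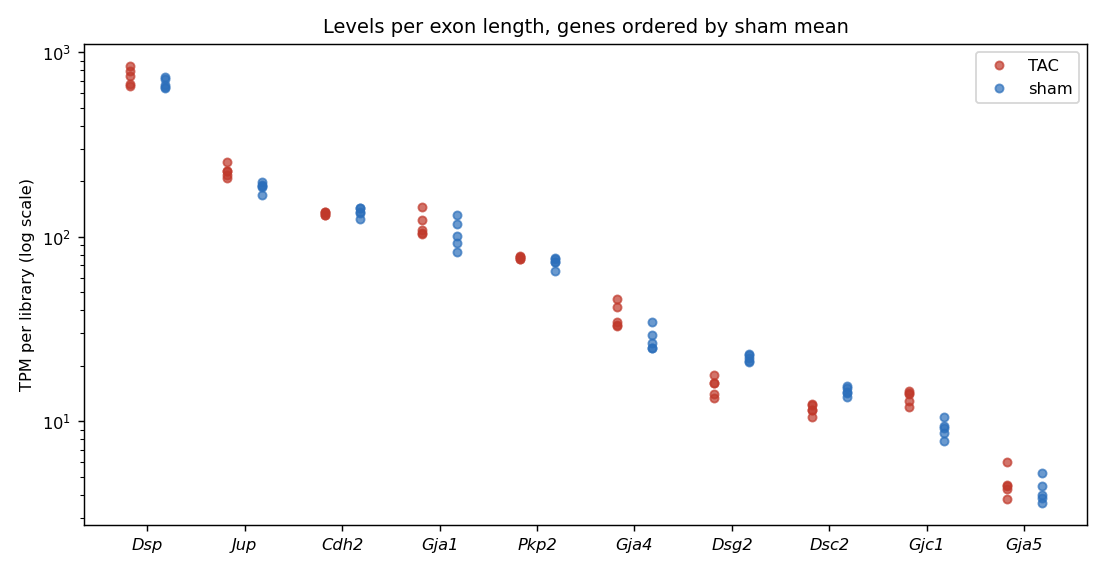
TPM of each gene in each TAC and sham library on a log axis, with genes ordered by the sham mean. Dsp lies highest with 656 to 844 TPM in TAC and 638 to 730.2 TPM in sham, and the TAC points of Dsg2 and Dsc2 lie beneath their sham points while those of Gjc1 and Jup lie above, and those of Cdh2 overlap.

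Other junction and disc genes changed in both directions. Of 69 genes in 5 lists, 41 were tested, of which 11 rose, 14 fell and 16 did not pass. That is 61.0% called, beside 35.8% of all tested genes. The lists were chosen with earlier results of these data known and were not matched for expression level. Whether disc genes changed more often than others was therefore not tested. The lists also hold genes known mainly from other cells, such as Cdh5 of endothelium. The median log2 fold change of the 41 tested genes was -0.05. Without TAC replicate 1, 9 rose and 12 fell, and with library totals only, 16 rose and 9 fell.

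The genes that connect N-cadherin to actin moved apart. Of 15 adherens junction and area composita partners, 7 rose, 4 fell and 4 did not pass. Ctnnd1, p120 catenin, which steadies cadherins at the membrane, rose 1.15-fold, and Mllt4, afadin, an actin linker, 1.17-fold. The largest rise was that of Xirp2, an actin-binding Xin repeat protein of the disc, with 1429 ± 393 CPM in TAC and 695 ± 54.1 CPM in sham (log2 fold change 1.04 ± 0.15, adjusted p = 0.000257 by edgeR). The highest library for Xirp2 was TAC replicate 1 with 1993 CPM, and without it the log2 fold change was 0.89 (adjusted p = 0.000123 by edgeR). Xirp1, its relative, rose 1.37-fold, a call that ended without TAC replicate 1 (adjusted p = 0.0533 by edgeR). Ctnna1, alpha catenin, which binds beta catenin and actin, fell to 0.861 of its sham level. Pkp4, a plakophilin-like catenin, and Lmo7, which binds afadin and alpha-actinin, fell to 0.7 and 0.735 of it. Tjp1, ZO-1, which binds connexin 43, had 118 ± 7.63 CPM in TAC and 122 ± 9.17 CPM in sham and did not pass. Ctnnb1, beta catenin, the near relative of plakoglobin, differed by 0.15 ± 0.06 on the log2 scale and did not pass (edgeR, adjusted p = 0.0554).

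Disc membrane and anchoring genes fell where they changed: of 12, 8 fell, 4 did not pass and none rose, and the median log2 fold change was -0.25. Those with the smallest adjusted p were Myzap, Ank3, Bves and Fgf13. Myzap, a disc protein that binds ZO-1 (Gcom1 in the table), had 272 ± 22.5 CPM in TAC and 379 ± 40.1 CPM in sham. Ank3, ankyrin G, which anchors sodium channels, and Bves, a membrane protein, fell to 0.807 and 0.767 of their sham level. Fgf13, a modulator of sodium channels, fell to 0.72 and Cxadr, an adhesion receptor of the disc, to 0.811 of it. With library totals only, 1 gene of this list rose and 5 fell, and without TAC replicate 1, 6 fell. The number that fell was 5 without sham replicate 4, without sham replicate 5 or without TAC replicate 3, and 1 gene rose without TAC replicate 2 or 4.

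Of 15 other desmosome genes, 6 were tested. Plec, plectin, a cytolinker of intermediate filaments, rose 1.2-fold and Tmem43, a membrane protein, 1.16-fold, while Ppl, periplakin, fell to 0.519 of its sham level. Without TAC replicate 1 the log2 fold change of Ppl was -0.85 (adjusted p = 0.00655 by edgeR). Des, desmin, the filament that desmoplakin anchors, had 4311 ± 843 CPM in TAC and 3497 ± 271 CPM in sham and did not pass (adjusted p = 0.0525 by edgeR). Its highest library was TAC replicate 1 with 5686 CPM, and without it the log2 fold change was 0.18 (adjusted p = 0.0902 by edgeR). The 9 not tested, which include the desmogleins and desmocollins of stratified epithelia, had at most 8 counts in any library. Only 1 of the 2 rises was called when TAC replicate 1, 2 or 3 or sham replicate 3, 4 or 5 was left out. Without TAC replicate 1 the call that ended was that of Tmem43 (adjusted p = 0.0853 by edgeR).

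Of 19 other connexins and pannexins, 4 were tested. Gja3, known from the eye lens as connexin 46, fell to 0.619 of its sham level (8.63 ± 1.33 CPM in TAC and 14.1 ± 1.59 CPM in sham, adjusted p = 0.000825 by edgeR). Panx1, which forms membrane channels that release ATP, rose 2.39-fold (3.67 ± 1.53 CPM in TAC and 1.51 ± 0.168 CPM in sham). Both also passed without TAC replicate 1, at a log2 fold change of -0.68 for Gja3 and 1.01 for Panx1. The 15 not tested had at most 13 counts in any library, and 5 of them were at 0 in all 10. Of 4 other cadherins tested, only Cdh5 passed, and 2 rose without sham replicate 2, TAC replicate 2 or TAC replicate 4. Cdh13, an anchored cadherin, had 216 ± 24.5 CPM in TAC and 235 ± 18.1 CPM in sham.

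**Figure D5:**
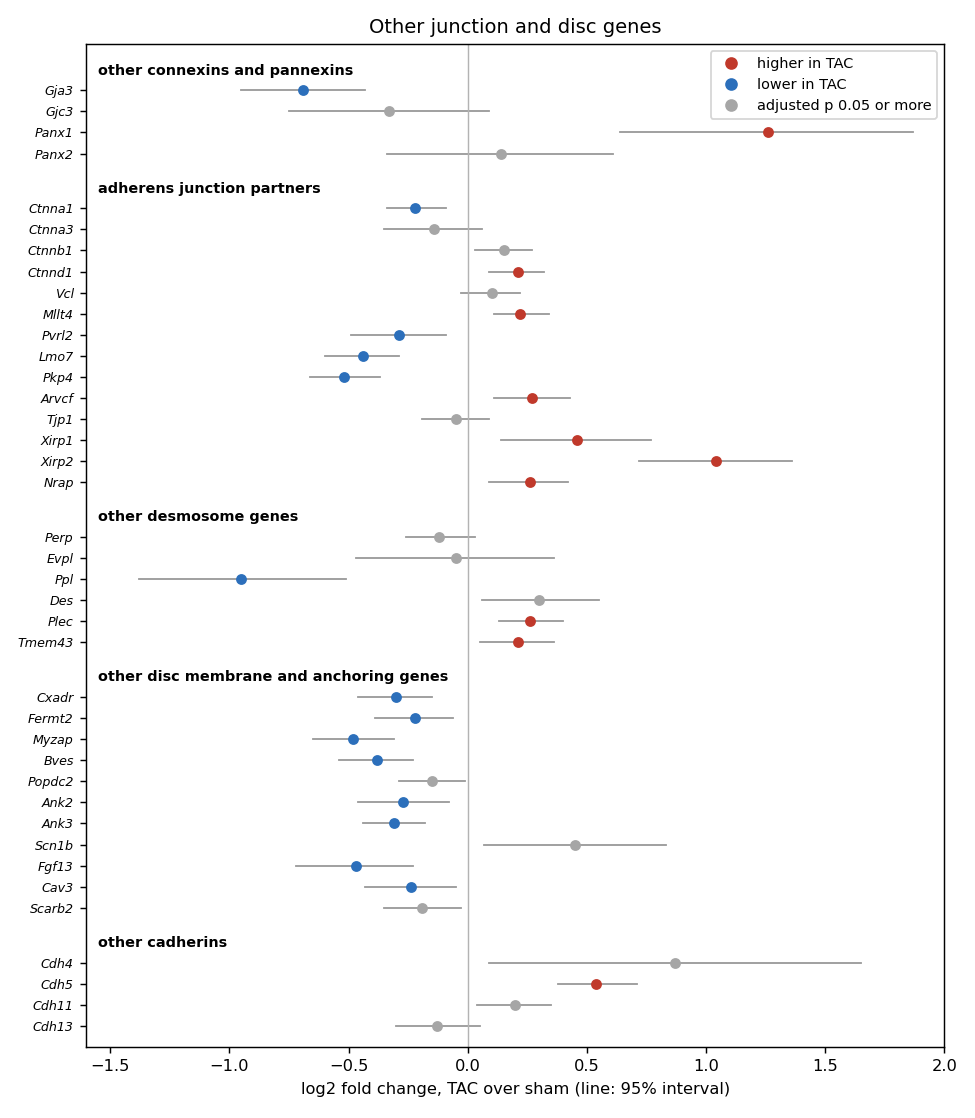
Log2 fold change of TAC over sham, with 95% intervals, for tested genes of the 5 lists of junction and disc genes. Xirp2 (1.04) and Panx1 (1.26) lie farthest right among the called genes, and Ppl (-0.95) and Gja3 (-0.69) farthest left.

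Cardiomyocyte markers fell beside the cadherins. Of 10 markers, 7 fell, 3 did not pass and none rose, with log2 fold changes from -0.60 to 0.02 and a median of -0.34. The number that fell was also 7 without TAC replicate 1. Their summed level was 68548 CPM in TAC replicate 1, 82362 to 94667 CPM in the other TAC libraries and 100055 to 116129 CPM in sham. The log2 fold change of Dsg2 (-0.67) lay below all 10, that of Dsc2 (-0.49) below 9 of them, and that of Cdh2 (-0.19) within their range. The values of Cdh2, Gja1, Gja4, Gja5, Gjc1, Dsp, Pkp2 and Jup lay above the median of the markers, so Cdh2 fell less than the typical marker. Of 10 fibroblast markers, 8 rose and none fell, and 7 rose without TAC replicate 1. Their summed level was 8713 CPM in TAC replicate 1, 3049 to 3644 CPM in the other TAC libraries and 963 to 1451 CPM in sham. The collagen genes Col1a1, Col1a2 and Col3a1 had 2998, 1847 and 3054 CPM in TAC replicate 1, and at most 1041, 725 and 1254 CPM in the other TAC libraries. Smooth muscle and pericyte markers gave 3 rises and no fall among 10 (4 rises without TAC replicate 1 and 1 fall without TAC replicate 4), with 1691 to 1924 CPM in TAC and 1614 to 1988 CPM in sham. Of 5 tested epithelial and mesothelial markers, only Wt1 rose, also without TAC replicate 1, and the sum of the list was 35.6 to 59.2 CPM in TAC and 27.1 to 51.7 CPM in sham. The part of these shifts in the values of the junction genes was not tested.

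The genes with the most similar profiles were sought by the root mean square distance of log2 CPM, centred on the sham mean, over the 10 libraries. Among 8741 candidates (mean log2 CPM 3 or more), the nearest to Dsg2 were Tbc1d4, a Rab regulator of glucose transporter traffic (distance 0.069), and Idh2, a mitochondrial isocitrate dehydrogenase (0.076). The nearest to Dsc2 were Ndufa5, a subunit of respiratory complex I (0.081), and Kcnk3, a potassium channel (0.082). For Cdh2 these were Mrps18a, a mitochondrial ribosomal protein (0.031), and Psmb6, a proteasome subunit (0.032). For Gjc1 they were A230046K03Rik (0.091) and Tcf4, a transcription factor (0.099). For Gja1, Hyal1 stood at 0.098, and for Dsp, Igf2r and Bbx stood at 0.052 and 0.055. Gja4 lay nearest to Snx6 and Kif5b (0.093 and 0.101), Gja5 to Ebp and 4930471M23Rik (0.088 and 0.099), Pkp2 to Psma7 and Bat3 (0.038 and 0.04), and Jup to Hivep2 (0.035).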

How the data were processed

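Polyadenylated RNA of 10 ventricular apexes was made into single-end libraries without strand, per the labels' protocols. The authors deposited raw counts of reads, a whole number for each Ensembl gene and library, with no normalization. Per the submitters' processing notes, TopHat2 2.0.10 with Bowtie2 and mm10 served the sham libraries and TopHat 1.3.0 with Bowtie, mm9 and mm10 the TAC libraries, with HTSeq for both. Per the file headers, gene IDs are of GRCm37. No settings of the counter are given. A row of totals was left out. All 10 columns were used. Some genes of the lists and of the nearest profiles are not reported here.

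Differences were tested with edgeR 4.0.16 under R 4.3.3, by its quasi-likelihood test with TMM normalization, filterByExpr (minimum count 10, minimum total 15), trended dispersion and group as the only term, with Benjamini-Hochberg adjustment at 0.05 over 12001 genes. Log2 CPM used a prior count of 2 and log ratios a pseudocount of 0.5. TPM used merged exon lengths of GENCODE M21, matched for 94.6% of IDs. Alternatives were library totals, RLE factors, DESeq2 1.42.0, limma-voom (limma 3.58.1), no filter, a replicate block and leaving out each library. Named genes were the members, up to 4 called genes per list with the smallest adjusted p, genes needed to describe a small count, and the 2 nearest profiles; other genes named for their known role beside a member were chosen after their values were seen. The members and lists were chosen with earlier results of these data known. Tested on simulated data of the same size, the method recovered 75% of 100 genes changed 1.5-fold and 93% of 100 changed 2-fold. The simulated spread came from the trended dispersion alone, with no library set apart. Far fewer genes were changed there than were called in the data, so these shares need not hold for the data. Library pairs within a group had a chi-square per gene of at least 2.57, so none was counted as a repeat.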

Additional observations from a re-analysis of the deposited data

Results flagged for a closer look

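In sham libraries, the log2 ratio of Dsc2 to Dsp counts was -6.62 in replicate 3, against -6.39 to -6.33 in the other 4, a gap that takes 0.787 of the range of the group. By chance about 1 in 20 groups is picked out in this way, and 36 groups (10 genes and 8 ratios, in TAC and in sham) were examined.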

How the results depend on the processing

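Of 160 alternative values of the 10 genes' log2 fold changes, 142 kept their direction and their side of the threshold. With library totals only, Gja1 was at 0.10, Gja5 at 0.08, Pkp2 at 0.03 and Dsp at 0.07, all positive and not called. 3 of the 10 genes were then higher (Gjc1, Gja4 and Jup), as were 16 genes of the 5 lists of other junction and disc genes, with 9 of those genes lower. Of all genes, 3257 were then higher and 1159 lower, against 2251 and 2040 with TMM factors. The cause was not tested beyond the shift of the median of all genes to 0.11. Gja1 was at 0.00 with limma-voom and with the replicate block. With the replicate block, 2 of the 10 genes were higher, Gjc1 and Gja4 (0.27, adjusted p = 0.0171 by edgeR). Replicate numbers were not taken as pairs, since 1 of 5 same-numbered pairs had a correlation over 0.1 and 2 of 5 TAC libraries correlated best with their own number. Sign flips of the log ratios within replicate numbers gave -0.64 for Dsg2/Dsp and -0.45 for Dsc2/Dsp (exact, p = 0.0625 for each, the smallest that 32 flips can give). Leaving out each library in turn, Gja1 ranged from -0.07 to 0.08, Gja5 from -0.12 to 0.05 and Dsp from -0.07 to 0.01. In those sets the log ratios ranged from 0.33 to 0.50 for Gjc1/Gja1, from -0.18 to -0.11 for Cdh2/Dsp, from -0.07 to 0.01 for Pkp2/Dsp, from 0.11 to 0.20 for Jup/Dsp, from -0.69 to -0.56 for Dsg2/Dsp and from -0.51 to -0.40 for Dsc2/Dsp. The ratio Jup/Dsp was called without TAC replicate 1 and Cdh2/Dsp without TAC replicate 3. In each of the 10 sets 1 of the genes was higher and 3 were lower. Gja5 rests on 62 to 98 reads per library, and its 95% interval of the fold, 0.806 to 1.2, is little wider than that of Gja1, 0.852 to 1.17, on 2831 to 4204 reads.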
